A study of Homo sapiens with 12 samples.

Results

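Mitochondria build the membrane core of the respiratory chain on their own ribosomes. The ribosomal RNAs of this mitoribosome come from mitochondrial DNA, but its proteins are all encoded in the nucleus, made in the cytosol and imported. The small subunit decodes the messenger RNA, the large subunit joins amino acids, and both carry proteins inherited from the bacterial ancestor beside others found only in mitochondria. In pancreatic beta cells the chain serves glucose sensing, since ATP made by mitochondria closes the potassium channels that hold back insulin release. The genes described here are those whose current symbol begins with MRPL or MRPS and a digit and whose deposited transcripts include a protein-coding RefSeq entry. They number 77 of the 21508 genes listed in at least 1 library, and the 77 are also all RefSeq protein-coding genes with such a symbol. Another 7 listed genes with a matching symbol had only noncoding entries and were left out.

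EndoC-βH1 is an established human beta-cell line that secretes insulin. Cultures received, by lipid transfection, either the AllStars negative control siRNA (labelled Scramble) or pre-designed siRNAs that target the long noncoding RNA TUNAR. At 2 days they were given the GSK3 inhibitor 1-AKP at 5 µM or its solvent DMSO (diluted 1:1000) for 24 hours. Each siRNA was combined with each treatment, which makes 4 groups of 3 libraries. Replicates 1 and 2 were cells of passage 74 and replicate 3 of passage 75, and every group was 1 cell line that had been through transfection. GSK3 is a kinase that marks beta-catenin and many other proteins for destruction, so its inhibition turns on Wnt-type transcription.

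TUNAR stood at 14.4, 19.9 and 17.6 CPM (counts scaled to the same library total) in the negative siRNA libraries with DMSO and at 3.83, 7.20 and 8.09 with TUNAR siRNAs. With 1-AKP it stood at 27.9, 31.0 and 30.8 against 6.95, 10.4 and 13.6. The groups did not overlap. Of 12 beta cell markers all were detected, with summed FPKM (fragments scaled by gene length and library total) of 21488.5 to 29844.7 per library, while the 5 listed fibroblast and stellate markers summed to 0.5 to 1.4, and the 6 listed endothelial and blood markers to 13.8 to 31.4, most of it CD68. The 5 listed markers of other islet cells summed to 6.3 to 53.8, a spread also present within groups (7.8 to 47.3 with negative siRNA and DMSO). Of these SST ranged from 5.89 to 52.94 FPKM and GCG from 0.0 to 0.35. The 6 listed duct and acinar markers summed to 49.6 to 65.8, of which KRT19 had 33.4 to 45.8, while PRSS1 was not listed. No gene of the mitochondrial genome was among the listed genes, so the ribosomal RNAs and the products of the mitoribosome were not measured.

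The mitoribosomal genes were expressed at a moderate level, and none was silent. Each of the 77 was listed in all 12 libraries and passed the filter on low counts. Their median level was 24.6 FPKM (middle 50% of genes 19.7 to 37.0), against a median of 3.52 over all listed genes, and 77 of 77 lay above that median. The highest member exceeded the lowest by 12.4 times. In all they took between 0.278% and 0.334% of the counts of a library. The 51 large subunit genes had a median of 24.6 FPKM and the 26 small subunit genes one of 25.5. The mean level of large subunit genes divided by that of small subunit genes was 0.953 ± 0.0114 (SD, n = 3) in DMSO and 0.950 ± 0.0197 in 1-AKP with negative siRNA. With TUNAR siRNAs it was 0.955 ± 0.0115 in DMSO and 0.957 ± 0.0062 in 1-AKP. The group means differed by less than the largest SD within a group.

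**Figure D1:**
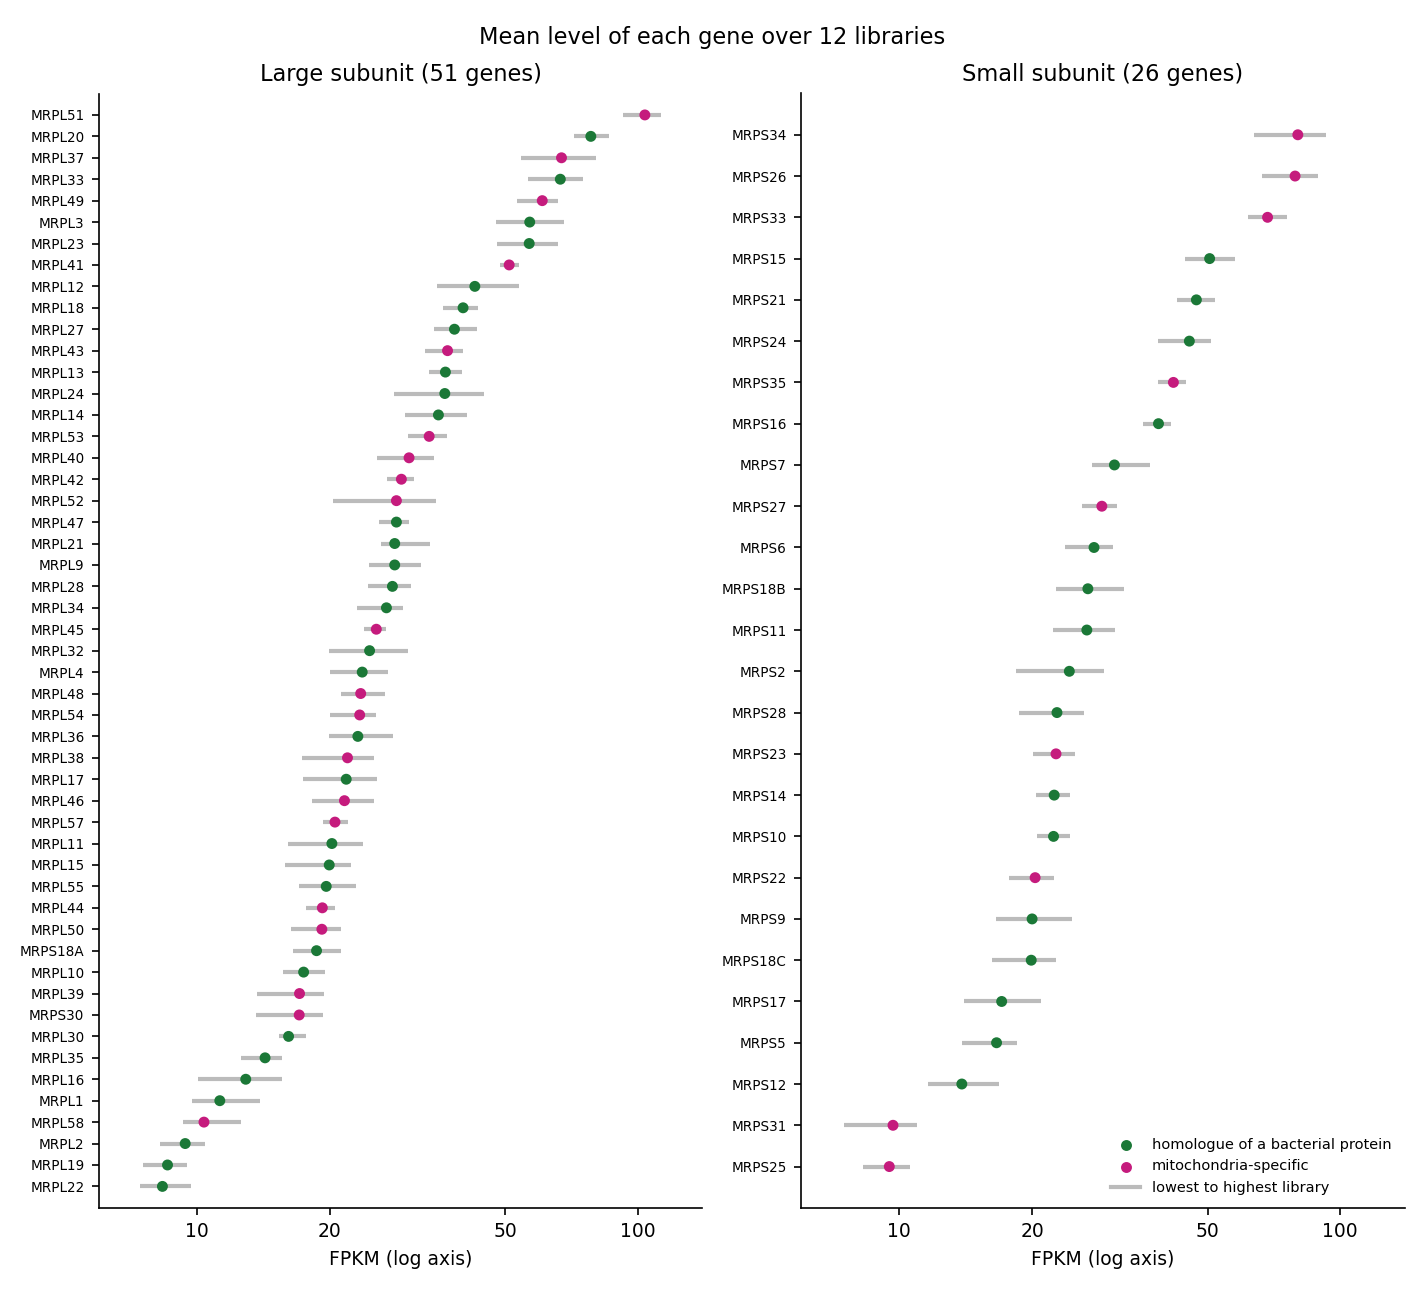
Mean FPKM of each gene over the 12 libraries (points, log axis), with bars from the lowest to the highest library, large subunit on the left and small subunit on the right. Levels run from 8.36 (MRPL22) to 103.7 (MRPL51), and genes for bacterial homologues and for mitochondria-specific proteins are mixed along the order.

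MRPL51, a mitochondria-specific protein of the large subunit, was the most abundant at 103.7 FPKM, with a range of 92.7 to 113 over the libraries. MRPS34, a mitochondria-specific protein of the small subunit, followed with 80.1 (63.6 to 92.9), then MRPS26 with 79.0 (66.4 to 89.1), MRPL20 with 78.2 (71.7 to 85.8) and MRPS33 with 68.4 (61.8 to 75.8). The ranges of MRPS34, MRPS26 and MRPL20 overlapped almost wholly, so their order is not resolved. At the bottom stood MRPS31 with 9.68 (7.51 to 10.97), MRPS25 with 9.49 (8.27 to 10.6), MRPL2 with 9.41 (8.27 to 10.5), MRPL19 with 8.58 (7.54 to 9.52) and MRPL22 with 8.36 (7.45 to 9.71), and these neighbours overlapped too. All members enter 1 particle, and their messages still spanned this range.

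Members with a known place on the ribosome also differed in level. MRPL12, which forms the stalk that recruits translation factors, had 42.7 FPKM (35.0 to 53.6), and MRPL10, which anchors that stalk, had 17.5 (15.7 to 19.5). MRPL11, at the stalk's base, had 20.2 (16.1 to 23.8). MRPL3, near the catalytic centre, had 56.9 (47.6 to 68.1), and MRPL23, at the exit of the peptide tunnel, had 56.7 (48.0 to 65.8). MRPL45, which ties the tunnel exit to the inner membrane, had 25.5 (24.0 to 26.8), and MRPL44 had 19.3 (17.7 to 20.5). MRPL58, a peptidyl-tRNA hydrolase built into the large subunit, had 10.4 (9.32 to 12.6). In the small subunit MRPS12, part of the decoding centre, had 13.9 (11.6 to 16.8). MRPS2 had 24.3 (18.4 to 29.1), MRPS7 30.7 (27.4 to 37.0), MRPS16 38.7 (35.7 to 41.3), MRPS22 20.3 (17.7 to 22.4) and MRPS27, an RNA-binding repeat protein, 28.8 (25.9 to 31.2). The 3 paralogues of bacterial S18 stood at 18.7 (MRPS18A, which sits in the large subunit), 26.8 (MRPS18B) and 19.9 (MRPS18C), and MRPS30, also a large subunit protein despite its symbol, at 17.1.

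The genes are short, which bears on every value. Their transcripts had a median length of 1196 bases (484 to 7827), against 2517 over all listed genes. Shorter members had higher FPKM: the 24 members under 1000 bases had a median of 34.5, the 40 between 1000 and 2000 bases 23.2 and the 13 longer ones 21.8. Spearman's rho across the 77 genes, which are not independent replicates, was -0.37 between FPKM and length and 0.52 between count and length. Expected counts were whole numbers (within 1e-06) in all 12 libraries for 56 members. For 13 members, MRPS16, MRPS18B, MRPL10 and MRPL45 among them, they were fractional in every library, which shows that some reads were shared out between sequences, and their levels are less certain for it.

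The promoters of these genes were searched for short motifs. RefSeq windows (GRCh38.p14, 250 bases before to 50 after the transcript start) were found for 69 of the 77. The ETS motif CCGGAAG, the core bound by factors such as the nuclear respiratory factor GABPA, was present on either strand in 30 of 69 members (43.5%), against 20.5% of 12444 tested genes with a window and 12.2% of all 27305 genes with one. It lay wholly before the start in 25 of the 30. The YY1 motif AAGATGGC was present in 21 of 69 (30.4%), against 5.8% of tested genes and 3.5% of all, and lay before the start in only 5 of the 21. Both motifs were present in 8 of 69 members (11.6%), against 1.5% of tested genes, and at least 1 of them in 43 (62.3%), against 24.8%. Neither motif contains the other, and overlap between their matches was not counted. Both strands were searched for each motif. The NRF1 motif GCGCATGCG was in 4.3% of members and 3.9% of tested genes, the SP1 motif GGGCGG in 60.9% and 73.3%, TATAAA in 4.3% and 8.8%, and, in a search added later, the E-box CACGTG in 13.0% and 12% and the TCF/LEF motif CTTTGAT, read by beta-catenin's partners, in 0.0% and 2.2%. A match is a run of letters and not a shown binding site. The sites printed here belong to members called with 1-AKP, chosen from those with 1 RefSeq window as the 4 with at least 2 ETS matches and the 3 of lowest p with a YY1 match. Capitals mark the motif, on either strand.
MRPL20, ETS, chr1:1407308-1407337, minus strand: CCGGAAGtatcgcaggggctgacCCGGAAG
MRPS21, ETS, chr1:150293848-150293876, plus strand: cgCTTCCGGtagtgagaaccCTTCCGGtg
MRPL51, ETS, chr12:6493356-6493385, minus strand: aaaaCTTCCGGcaggcggaCCGGAAGcact
MRPS34, ETS, chr16:1773141-1773169, minus strand: cggcctCTTCCGGtgaCTTCCGGccggac
MRPS18B, YY1, chr6:30617852-30617881, plus strand: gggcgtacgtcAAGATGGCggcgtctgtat
MRPL20, YY1, chr1:1407260-1407289, minus strand: ccgacccgggcAAGATGGCagcggcgctgc
MRPS7, YY1, chr17:75261887-75261916, plus strand: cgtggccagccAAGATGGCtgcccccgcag
The ETS matches of MRPL20 begin 44 and 21 bases before its start and those of MRPL51 begin 119 and 104 bases before. MRPS34 has 3 matches, of which the stretch shows the 2 that begin 29 and 19 bases before its start. In GENCODE release 29 the stretches shown for MRPL20, MRPS21 and MRPS34 overlap an annotated UTR, those of MRPS18B and MRPS7 both UTR and coding sequence, and that of MRPL51 also a UTR of NCAPD2.

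With 1-AKP, a number of mitoribosomal genes of both subunits rose. Averaged over both siRNAs, 27 of 77 members (35.1%) were called higher and 0 lower, against a background of 9.97% of all 15990 tested genes called higher and 9.25% lower. Among the 8957 tested genes within the members' range of expression, 11.4% were called higher. The median member changed by 0.149 on the log2 scale (10.9% higher), beside -0.003 over all genes, and 71 of 77 members had a positive fold change. The 27 called members rose by between 10.7% and 29.8%. Calls here and below are from edgeR's quasi-likelihood test with Benjamini-Hochberg adjusted p under 0.05.

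Summed over the 77 genes, FPKM was 2203.3, 2354.1 and 2359.2 with negative siRNA and DMSO and 2426.2, 2555.0 and 2601.9 with negative siRNA and 1-AKP. With TUNAR siRNAs it was 2153.7, 2277.7 and 2320.7 in DMSO and 2352.8, 2512.6 and 2584.2 in 1-AKP. With both siRNAs the lowest 1-AKP library stood above the highest DMSO library. Replicate 1 was the lowest of its group in all 4 groups. Whether more RNA per cell or more cells of a state rich in these messages lies behind such a difference cannot be told apart in RNA from whole cultures.

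**Figure D2:**
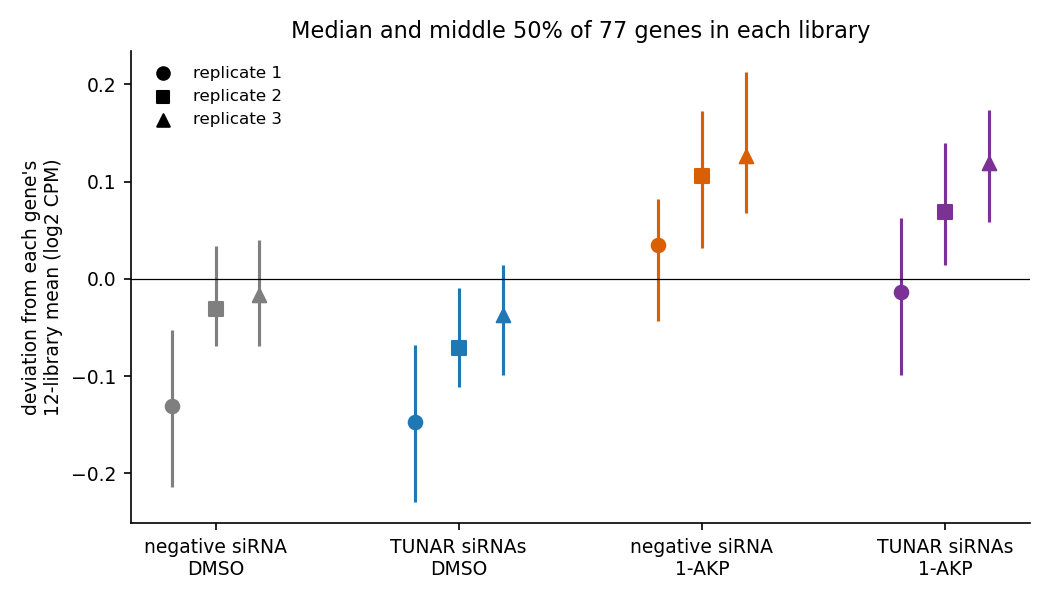
Median deviation of the 77 genes from each gene's mean over 12 libraries (points, log2 CPM, shape by replicate) with the middle 50% of genes (bars). Medians run from -0.131 to -0.017 with negative siRNA and DMSO, -0.147 to -0.037 with TUNAR siRNAs and DMSO, 0.035 to 0.126 with negative siRNA and 1-AKP and -0.013 to 0.120 with TUNAR siRNAs and 1-AKP, and replicate 1 is lowest in each group.

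MRPL37, a mitochondria-specific large subunit protein, changed the most among called members. Its FPKM was 57.6, 61.2 and 62.8 with negative siRNA and DMSO and 72.0, 78.2 and 80.5 with 1-AKP. With TUNAR siRNAs it was 54.5, 59.5 and 57.6 in DMSO and 68.9, 75.2 and 77.5 in 1-AKP. All 6 libraries with 1-AKP lay above all 6 with DMSO. Averaged over siRNAs the log2 fold change was 0.38 (SE 0.045, adjusted p = 0.00013).

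MRPL49, also mitochondria-specific, separated the treatments without overlap with a smaller change. It stood at 56.4, 58.8 and 58.5 FPKM with negative siRNA and DMSO, 53.1, 59.6 and 54.7 with TUNAR siRNAs and DMSO, 63.2, 66.1 and 64.4 with negative siRNA and 1-AKP and 63.2, 65.1 and 65.5 with TUNAR siRNAs and 1-AKP. The averaged log2 fold change was 0.21 (SE 0.035, adjusted p = 0.00138). MRPL23, at the tunnel exit, stood at 48.0, 52.2 and 51.9 and rose to 61.3, 61.0 and 65.8 with negative siRNA, and went from 48.7, 52.1 and 53.9 to 54.4, 65.5 and 65.8 with TUNAR siRNAs. Its lowest 1-AKP library, replicate 1 with TUNAR siRNAs, stood close to the highest DMSO library, and the averaged change was 0.30 (SE 0.056, adjusted p = 0.00233).

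In the small subunit MRPS18B had 24.0, 25.9 and 26.6 FPKM with negative siRNA and DMSO and 28.1, 31.4 and 32.4 with 1-AKP. With TUNAR siRNAs it had 24.2, 22.9 and 22.7 and then 27.1, 29 and 26.8. Within each siRNA the treatments did not overlap, and the averaged change was 0.28 (SE 0.049, adjusted p = 0.00177). MRPS16, a bacterial homologue, changed less and varied less. Its DMSO libraries lay between 35.7 and 38.1 and its 1-AKP libraries between 39.9 and 41.3, a change of 0.15 (SE 0.030, adjusted p = 0.0048).

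In the stalk that recruits factors, 2 of 3 named members were called. MRPL12 had 35.0, 37.6 and 39.4 FPKM with negative siRNA and DMSO and 42, 49.9 and 49.3 with 1-AKP, and 35.4, 40.0 and 41.3 against 37.8, 51.1 and 53.6 with TUNAR siRNAs. Replicate 1 with TUNAR siRNAs and 1-AKP overlapped the DMSO libraries while the other two lay well above them. The averaged change was 0.33 (SE 0.086, adjusted p = 0.0172). MRPL11, at the stalk's base, was also called, with 0.28 (SE 0.071, adjusted p = 0.0146), and MRPL10, the anchor, was not, with 0.11 (SE 0.050, adjusted p = 0.148).

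**Figure D3:**
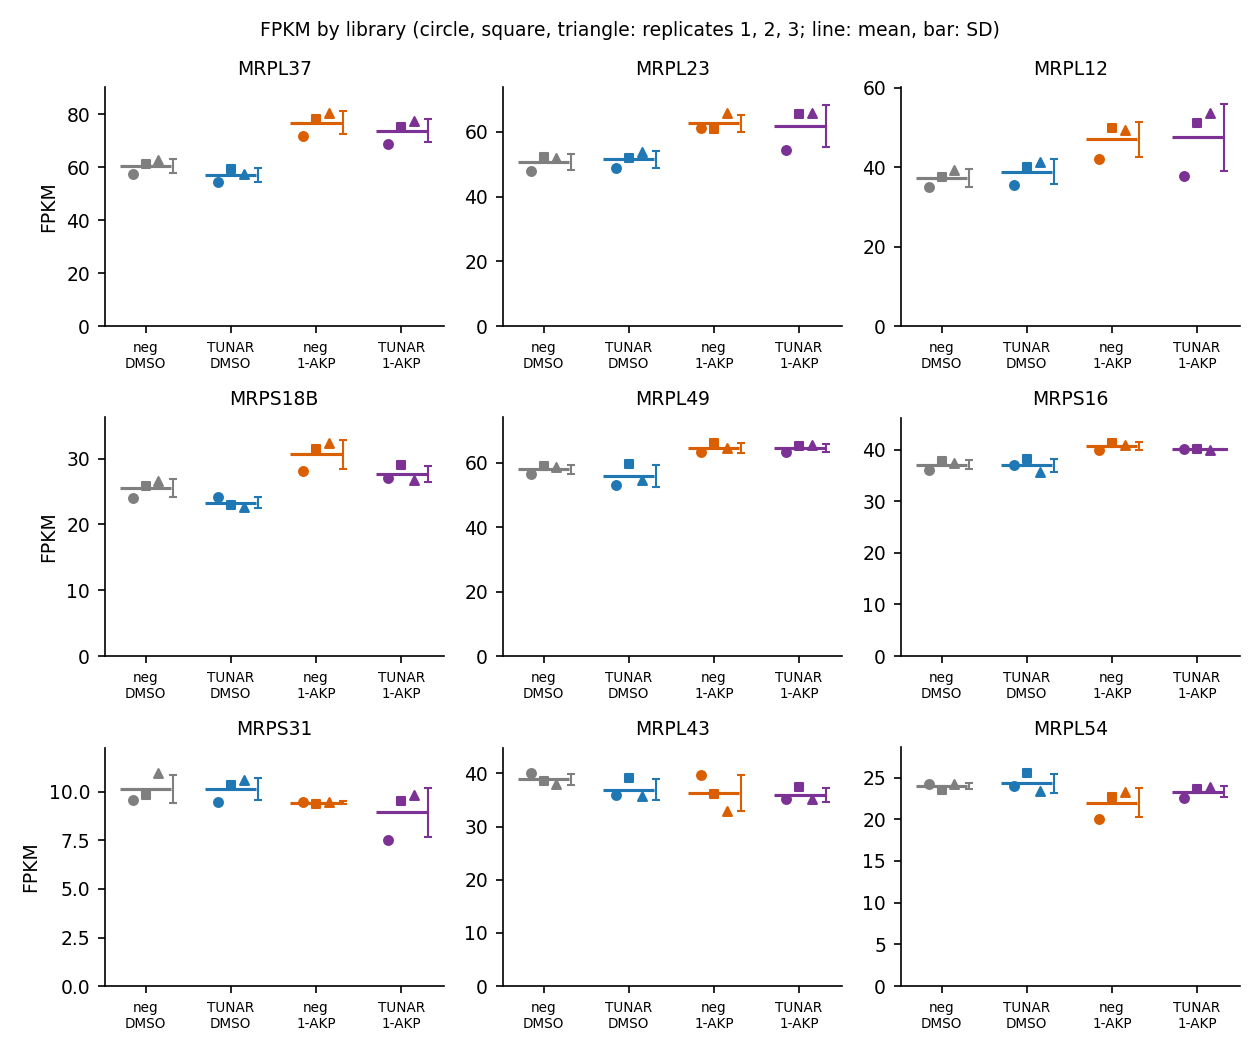
FPKM in every library for 9 genes (axes from 0; symbols by replicate, line at the group mean, bar 1 SD of 3 libraries). MRPL37, MRPL23, MRPL49, MRPS18B and MRPS16 separate 1-AKP from DMSO within each siRNA, and MRPL12 rises with replicate 1 lowest in each group. On the log2 CPM scale MRPL43, MRPL54 and MRPS31 overlap between treatments with each siRNA, and their negative fold changes were not called.

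Of the other members of lowest p, MRPL20 changed by 0.17 (adjusted p = 0.00512), MRPS7 by 0.22 (0.00556), MRPS21 by 0.18 (0.00579), MRPS15 by 0.22 (0.00666) and MRPL51 by 0.17 (0.00697), all by edgeR's quasi-likelihood test. Among members of known position MRPS2 was called with 0.28 (adjusted p = 0.0102), MRPL3 with 0.22 (0.0247), MRPS34, which had the second highest level, with 0.26 (0.0305) and MRPS18A with 0.17 (0.0466). Those not called were MRPS12 with 0.25 (adjusted p = 0.0604), MRPS18C with 0.17 (0.0625), MRPL45 with 0.07 (0.224), MRPS22 with 0.09 (0.274), MRPL44 with 0.08 (0.312), MRPS27 with 0.06 (0.408), MRPS30 with 0.09 (0.596) and MRPL58 with 0.05 (0.753). MRPL40 (adjusted p = 0.0493) was the last inside the threshold and MRPL4 (0.0501) the first outside it. Of the 6 members with a negative fold change, none passed the test. MRPS31 had -0.12 (SE 0.075, adjusted p = 0.303), MRPL43 -0.06 (0.431) and MRPL54 -0.07 (0.435).

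Called members numbered 15 of 51 in the large subunit and 12 of 26 in the small one, with medians of 0.145 and 0.167. By origin, proteins with a bacterial homologue had medians of 0.168 in the large subunit (10 of 31 called) and 0.182 in the small one (9 of 17 called, and 17 of 17 positive). The mitochondria-specific proteins had 0.096 (5 of 20 called) and 0.104 (3 of 9 called). The difference between the classes was not tested. MRPL37 and MRPL49, first and second by p, belong to the mitochondria-specific class with the lower median.

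The motifs were also set beside the changes. The 30 with an ETS motif had a median change of 0.138 (11 called) and the 39 without one 0.175 (14 called), and the 21 with a YY1 motif had 0.169 (9 called) against 0.141 for the 48 without (16 called). None of these contrasts was tested.

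The comparison was also made within each siRNA, in libraries the 2 comparisons do not share. With negative siRNA 8 of 77 members were called higher and 0 lower, against 3.54% and 3.76% of all tested genes (3.43% higher among genes at the members' level), and the median was 0.146 with 68 members positive. With TUNAR siRNAs 5 were called higher and 0 lower, against 3.72% and 3.79% (3.77% higher at that level), and the median was 0.137 with 71 positive. The called members were MRPL37, MRPS18B, MRPL23, MRPS10, MRPL49, MRPS16, MRPS7 and MRPS17 with negative siRNA, and MRPL37, MRPL49, MRPL20, MRPS18B and MRPL51 with TUNAR siRNAs. MRPL37, MRPL49 and MRPS18B were called in both, which is 37.5% of the first list and 60.0% of the second. MRPL37 had 0.37 (SE 0.063, adjusted p = 0.00495) with negative siRNA and 0.39 (SE 0.063, adjusted p = 0.00379) with TUNAR siRNAs. MRPS17 had the second largest change of the called members with negative siRNA, 0.35 (SE 0.097, adjusted p = 0.0475). The negative values furthest from 0 by p did not pass: MRPL54 with -0.10 (adjusted p = 0.543), MRPL43 with -0.08 (0.576) and MRPS31 with -0.08 (0.753) with negative siRNA, and MRPS31 with -0.16 (0.427), MRPL2 with -0.08 (0.693) and MRPL16 with -0.12 (0.740) with TUNAR siRNAs.

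The ranges of the libraries, on the scale of TMM-scaled log2 CPM, were compared as well. With negative siRNA 28 members had all 3 libraries with 1-AKP above all 3 with DMSO and 0 below, against 13.4% and 12.5% of all genes. With TUNAR siRNAs 29 were above and 0 below, against 12.1% and 12%. In 16 members the groups were apart and higher with both siRNAs, against 7.38% of all genes, and in 0 lower, against 6.97%. Across the 77 genes, which share libraries and are no replicates, the fold changes of the 2 comparisons had Pearson's r of 0.76 and Spearman's rho of 0.71. They were positive in both for 67 members, negative in both for 5 and mixed for 5.

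**Figure D4:**
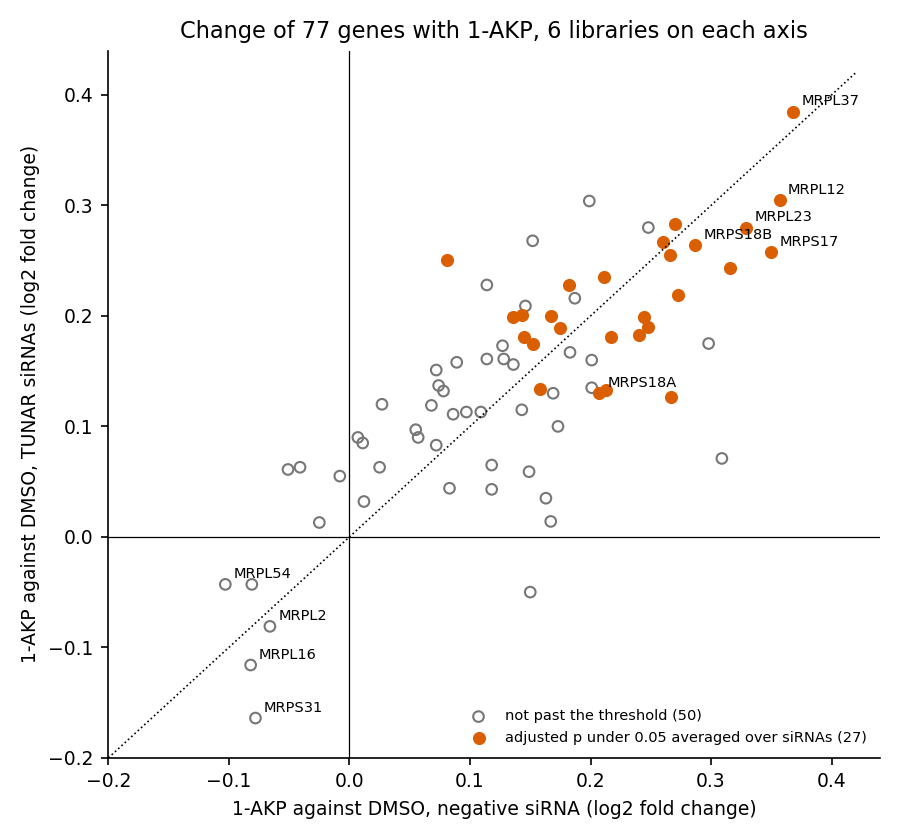
Log2 fold change with 1-AKP under negative siRNA (x) and under TUNAR siRNAs (y) for the 77 genes, filled where the averaged change was called (27) and open where not (50); the dotted line marks equal change. Points fill the upper right quadrant (67 positive in both), with MRPL37 at the far end.

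Single libraries mattered for the counts within 1 siRNA, where only MRPL37 kept its call with every library left out in turn. With negative siRNA the 8 calls became 1 without replicate 1 or 2 of negative siRNA with DMSO or replicate 2 or 3 of negative siRNA with 1-AKP, and 2 without replicate 3 of negative siRNA with DMSO. They became 5 without replicate 2 or 3 of TUNAR siRNAs with DMSO and 4 without replicate 2 or 3 of TUNAR siRNAs with 1-AKP, which enter through the shared spread. With TUNAR siRNAs the 5 calls became 1 without replicate 1 or 3 of TUNAR siRNAs with DMSO or replicate 2 or 3 of TUNAR siRNAs with 1-AKP, 2 without replicate 2 of TUNAR siRNAs with DMSO or of negative siRNA with 1-AKP, 3 without replicate 2 of negative siRNA with DMSO, and 10 without replicate 1 of TUNAR siRNAs with 1-AKP. The averaged count stayed between 19 and 35, with 17 of the 27 members called in every such fit, and its median between 0.136 and 0.163. No share of all genes is given for these fits, so the counts alone do not show a change particular to the members.

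Length moved with the 1-AKP change over all genes. Spearman's rho of the averaged change with length, across 15990 genes, was -0.189, and -0.095 across the members. Among genes at the members' level the median change was 0.122 below 1000 bases (402 genes), 0.062 from 1000 to 2000 bases (1768 genes) and -0.010 above (6787 genes). The members had medians of 0.158, 0.154 and 0.137 in the same bands, above those of all genes at that level in each band. That difference was not tested. With the length trend removed from each library the median became 0.097, and 14 of the 77 members were called higher, against 9.37% of all genes. MRPL37 then had 0.34 (adjusted p = 0.000314), MRPL49 0.19 (0.00266) and MRPS18B 0.24 (0.00572), while MRPS15 had 0.16 (0.0544), MRPL20 0.10 (0.0895) and MRPL51 0.09 (0.139) and were no longer called. Within the siRNAs 1 member was called higher with negative siRNA, against 2.8% of all genes, and 2 with TUNAR siRNAs, against 2.88%, after that step. These shares are close to the background. After the same step the libraries' median deviations of the members from each gene's mean overlapped between treatments with both siRNAs. With negative siRNA, replicate 1 in 1-AKP stood at -0.0208, below replicates 2 (-0.0119) and 3 (-0.0069) in DMSO. With TUNAR siRNAs, replicate 1 in 1-AKP stood at -0.0205, below replicate 3 in DMSO (-0.0161). Replicates 2 and 3 in 1-AKP lay between 0.047 and 0.0983, above all DMSO libraries.

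**Figure D5:**
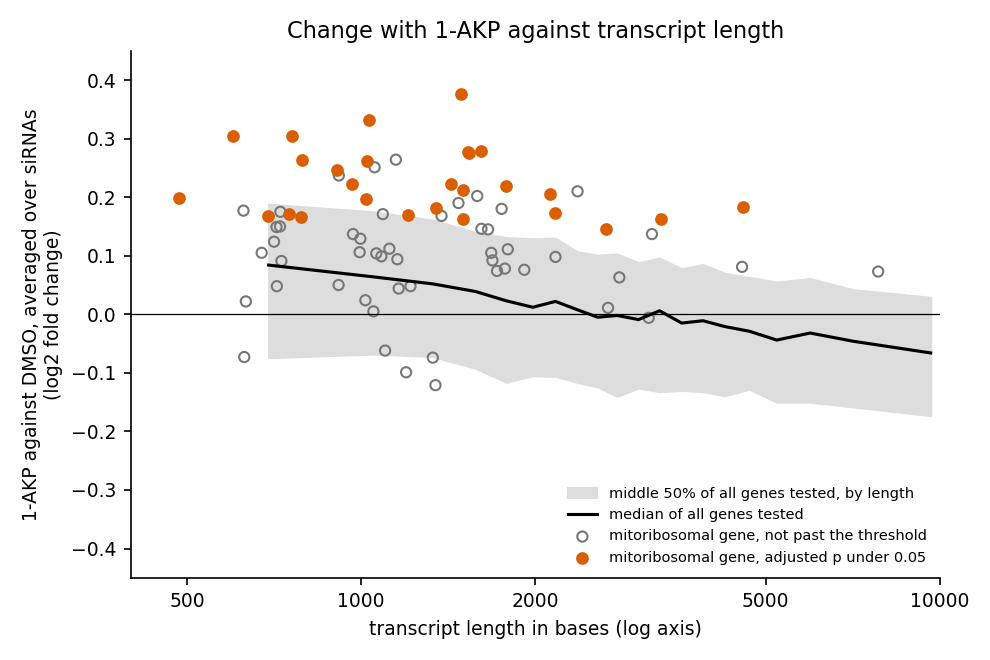
Averaged log2 fold change with 1-AKP against transcript length (log axis) for the 77 genes (points, filled where called), with the median and middle 50% of all tested genes in 20 length classes (line and band). The line falls with length, and 71 of the 77 points lie above 0.

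Other genes of mitochondrial translation were taken from lists, whose counts stand beside the 9.97% of all genes called higher and 9.25% lower. The list of mitoribosomal proteins with other symbols, which also holds OXA1L, had 2 of 6 called higher and 0 lower with 1-AKP, averaged, with a median of 0.138. OXA1L, which is no ribosomal protein but inserts new proteins into the inner membrane, had 0.20 (adjusted p = 0.00318), and of the ribosomal proteins CHCHD1 had 0.18 (0.0213) and DAP3 0.07 (0.148). Translation factors had 3 of 14 higher and 0 lower (median 0.047), namely MTRF1L, a release factor, at 0.20 (adjusted p = 0.00643), MRRF, the recycling factor, at 0.31 (0.00929) and TUFM, the elongation factor, at 0.16 (0.0164). Assembly factors had 4 of 28 higher and 0 lower (median 0.050), led by ERAL1 at 0.16 (adjusted p = 0.0131), GTPBP6 at 0.20 (0.019) and RPUSD4 at 0.23 (0.0259). Of 20 aminoacyl-tRNA synthetases and partners 1 was called, GATC, below the share of all genes, with MARS2 at 0.28 (0.0566) and EARS2 at 0.36 (0.0713) outside. Of 17 genes of mitochondrial transcription and RNA stability 4 were higher and 0 lower (median 0.054), among them LRPPRC and SLIRP, partners that stabilise mitochondrial messages, at 0.22 (adjusted p = 0.00111) and 0.24 (0.00358), and HSD17B10 at 0.21 (0.0159).

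Of 7 tested regulators of nuclear-encoded mitochondrial genes 1 was called higher and 2 lower (median -0.106). GABPA, whose ETS motif is described above, went from 10.5 FPKM on average with negative siRNA and DMSO to 8.48 with 1-AKP and fell by 0.29 (SE 0.041, adjusted p = 0.000404). YY1 went from 33.1 to 28.8 and fell by 0.17 (SE 0.047, adjusted p = 0.0233). ESRRA, an orphan receptor of mitochondrial genes, rose from 22.3 to 27.2, a change of 0.33 (SE 0.051, adjusted p = 0.000859).

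Further lists were counted in the same comparison. Of 12 mitochondrial chaperones and proteases 5 were higher and 0 lower (median 0.149), with HSPE1 at 0.29 (adjusted p = 0.00563), HSPD1 at 0.32 (0.0116) and LONP1 at 0.23 (0.0177). Of 13 targets of the integrated stress response 6 were higher and 1 lower (median 0.169), with ATF4 at 0.17 (adjusted p = 0.00155), TRIB3 at 0.23 (0.00198) and SHMT2 at 0.33 (0.00259). Of 12 beta cell markers 1 was higher and 5 lower (median -0.165), with NKX6-1 at -0.50 (adjusted p = 5.18e-05), PAX6 at -0.28 (6.36e-05) and IAPP at -0.80 (0.0045). Of 10 mitotic genes 0 were called in either direction, with CENPF at -0.17 (adjusted p = 0.541), MKI67 at 0.05 (0.578) and CDK1 at 0.11 (0.723). Of the markers of other islet cells, of duct and acinar cells and of fibroblasts 0 of 2, 0 of 3 and 0 of 2 tested were called, and of 4 endothelial and blood markers CD14 was, at 0.53 (adjusted p = 0.0343), from 1.63 to 2.36 FPKM with negative siRNA. The part of these groups in the members' change was not tested.

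No mitoribosomal gene was called in the siRNA comparisons in the fit without pairs, and the sign of the members' median rested on single libraries within a treatment. In DMSO 0 members were called in either direction, against 0.0% and 0.0125% of all genes, with a median of -0.020, 27 positive and 49 negative, and 1 at an unadjusted p under 0.05. With single libraries left out that median ran from -0.061 to 0.009 and the positive members from 15 to 41. The median lay above 0 without replicate 2 or 3 of negative siRNA with DMSO or replicate 1 of TUNAR siRNAs with DMSO. DESeq2 also called 0. No share of all genes is given for counts at an unadjusted p under 0.05, here or below. Such counts alone do not show a change particular to the members. The member under that p was MRPL51, with 99.3, 99.7 and 109 FPKM with negative siRNA and 93.1, 92.7 and 97.1 with TUNAR siRNAs, a change of -0.11 (SE 0.052, adjusted p = 1.0 by edgeR). The groups did not overlap, as in 6 members that were lower and 0 that were higher, against 5.22% and 5.3% of all genes. Next by p were MRPL50 at 0.16 (SE 0.082), MRPL57 at -0.11 (SE 0.059) and MRPS18B at -0.13 (SE 0.069), with MRPL33 at 0.08 and MRPL27 at 0.09 the next positive values, none called. In 1-AKP 0 were called by edgeR and by DESeq2, against 0.0% in both directions, with a median of -0.021 and 2 members (MRPL50, MRPS18B) at an unadjusted p under 0.05, and 1 member was apart and higher and 4 lower, against 4.5% and 4.47%. There the median ran from -0.052 to 0.020 with single libraries left out, above 0 without replicate 3 of negative siRNA with 1-AKP or replicate 1 of TUNAR siRNAs with 1-AKP, and the positive members from 19 to 44. In 1-AKP MRPS18B had -0.15, MRPL55 -0.16, MRPL32 -0.17, MRPL18 0.10 and MRPL53 0.09, none called. Over both treatments edgeR and DESeq2 called 0, against 0.05% higher and 0.125% lower by edgeR, with 4 at an unadjusted p under 0.05 (MRPL50, MRPS18B, MRPL55 at -0.15 and MRPL51 at -0.08), with a median of -0.032 (-0.048 to -0.010 with single libraries left out), 26 positive and 51 negative.

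MRPL50, a mitochondria-specific large subunit protein, was called once replicate numbers were treated as pairs. It had 16.3, 20.2 and 18.3 FPKM with negative siRNA and DMSO and 19.4, 20.3 and 21.2 with TUNAR siRNAs and DMSO. With 1-AKP it had 17.2, 17.0 and 17.8 against 20.9, 21.0 and 21.0. The groups were apart in 1-AKP, overlapped in DMSO, and each TUNAR library exceeded the negative library of its number. With the replicate block it was called in 1-AKP (0.27, SE 0.074, adjusted p = 0.0327 in edgeR, against 0.731 without the block) and averaged over treatments (0.22, SE 0.052, adjusted p = 0.00515, against 0.188). MRPS18B fell in the averaged block fit (-0.14, SE 0.040, adjusted p = 0.0278, against 0.38 without the block). The block fits called 1.44% of all genes higher and 1.33% lower in 1-AKP, and 4.4% and 4.18% averaged. In DMSO the block fit called 0 members, against 1.71% and 1.34% of all genes.

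The siRNA effect was not shown to differ between treatments for any member. Of the differences of the siRNA effects, 0 were called, as among all genes (0.0%), with and without the block and by DESeq2, with 0 members at an unadjusted p under 0.05. They ran from -0.24 (MRPS9, SE 0.153) to 0.17 (MRPL40, SE 0.109). The median was 0.016. MRPL27 had -0.15, MRPL46 -0.14, MRPL50 0.11 and MRPL57 0.10.

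The members also moved together between replicates within groups. In replicate 1 of the 4 groups, compared with replicates 2 and 3 in the fit with group and replicate number, 37 members were called lower and 1 higher, against 21.5% and 20% of all genes. The median was -0.104, and 66 of 77 were negative. Deviations from group means correlated at 0.336 to 0.427 among the replicate 1 libraries of the 4 groups, which may not be independent. The adjusted p-values here measure the spread left after group and replicate number, not that between differently numbered cultures. The largest differences were MRPS30 at -0.34 (SE 0.049, adjusted p = 7.32e-07), MRPL24 at -0.32 (SE 0.045, adjusted p = 2.73e-07), MRPS26 at -0.30 (SE 0.032, adjusted p = 1.55e-09), MRPL16 at -0.28 and MRPL12 at -0.27. MRPS33 at 0.12 (SE 0.039, adjusted p = 0.0115) was the one called higher, and the next positive values were MRPL10 at 0.10, MRPL2 at 0.09, MRPL47 at 0.05 and MRPL13 at 0.05.

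MRPS26 shows it in FPKM: replicate 1 had 66.4, 66.4, 76.0 and 66.4 in the 4 groups, while replicates 2 and 3 ran from 78.2 to 89.1. Replicate 1 was the lowest library in all 4 groups for 30 members and the highest in all 4 for 2. The same count over all genes is not given here, so whether these numbers are unusual is not known. Mitotic genes went the other way, with 10 of 10 called higher in replicate 1 (median 0.566), and 11 of 12 beta cell markers were called lower (median -0.211). Of 12 chaperones and proteases 8 were called lower there and of 20 synthetases 11, while 8 of 13 stress response targets were higher and 2 lower. Of the markers of other cells tested, 3 of 3 duct and acinar markers were called lower, and 2 of 2 fibroblast markers and 1 of 2 other islet markers higher. The part of these lists in the members' difference was not tested. What a replicate number marks is not stated, and replicate 1 shares passage 74 with replicate 2. Of the 27 members called with 1-AKP, 13 were also called lower in replicate 1, beside 37 of all 77 members, a similar share.

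Over the 12 libraries the mean pairwise Pearson correlation between members was 0.438, and 0.285 with group means removed. With replicate means removed as well it fell to 0.004, while over all genes it was 0.0, 0.0 and 0.001. Without replicate 1, 19 members were called higher with 1-AKP under negative siRNA, 22 under TUNAR siRNAs and 40 averaged, against 8.29%, 9.05% and 15% of all genes. With passage 74 alone, 2 libraries a group, 0, 0 and 2 members were called higher, against 0.0624%, 0.0873% and 2.38% of all genes. Those called averaged were MRPL37 and MRPS18B.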

How the data were processed

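Polyadenylated RNA of 12 EndoC-βH1 cultures was sequenced, 3 libraries in each of 4 groups. Per the file headers, the authors deposited for each gene an expected count, an estimated read count without normalisation, and FPKM, which is the count scaled by gene length and library size. The deposited length column is the gene length, another quantity. RSEM, Bowtie and BWA are named in the submitters' processing notes, as are the builds GRCh37 and hg19, with no versions or roles. Per the labels' protocols, first strands were primed with random hexamers and no step marks the strand, so reads from opposite strands cannot be told apart. Genes missing from a library's list were set to 0.

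Expected counts (15653786 to 15986834 per library, 35.3% to 36.0% of them not whole within 1e-06) were rounded. Genes were kept by filterByExpr (minimum count 10, total 15), leaving 15990, and scaled by TMM (factors 0.990 to 1.014). The counts were fitted by group (4 means, 8 residual degrees of freedom) with edgeR 4.0.16 in R 4.3.3 (quasi-likelihood, robust), and p-values were adjusted by Benjamini-Hochberg over all genes tested at 0.05. Nothing in the labels says that the cultures of a group were independent beyond the passage, so p-values measure the spread between these libraries.

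In the siRNA comparisons, deviations from group means correlated between libraries of the same number at 0.376, 0.178 and 0.217 in DMSO. In 1-AKP they correlated at 0.416, 0.162 and 0.286, and every value was over 0.1. The siRNA results are therefore also given with same-numbered libraries treated as pairs, beside the main fit, which held no pairs. The outcomes differ for MRPL50 and MRPS18B, which were called with pairs and not in the main fit. The pairing comes from the data, as no label explains the numbers. In the 1-AKP comparisons replicate 2 correlated at 0.087 and 0.063, under 0.1. The main fit held no pairs there either, and the block fits, which called more members, are given among the alternatives.

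Of 21508 gene identifiers 21386 matched a current symbol. The members and gene lists were chosen with earlier results of these data known. Named genes are members of known position, the 5 highest and 5 lowest by FPKM, up to 10 called members per comparison and direction by lowest p (3 by lowest unadjusted p where fewer than 3 were called), the 5 largest differences of replicate 1 in each direction, and up to 3 genes of lowest p per list. Promoter sequences are RefSeq's. Alternatives were other scalings, DESeq2 1.42.0, limma 3.58.1 on log2 FPKM, no filter, removal of the length trend (a lowess curve of log2 count on log2 length per library), passage, the replicate block and left-out libraries.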

Additional observations from a re-analysis of the deposited data

How the results depend on the processing

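The medians of the members' fold changes stayed within 0.0588 (log2) of the reported value under all alternatives run. That is 1 pooled within-group SD of the libraries' member medians, and it includes the shift of replicate 1. For 1-AKP averaged over siRNAs the median was 0.149 and ran between 0.096 and 0.163. With the length trend removed it lay near the low end of that range, a large part of the change. Counts of called members moved more. With 1-AKP and negative siRNA the count of 8 became 35 with the replicate block, 29 with the block and the length trend removed, 3 with library size only, 3 without the filter, 1 with the length trend removed, 4 with limma at either pseudocount (1 or 0.1), 0 in passage 74 only, 19 without replicate 1 and between 1 and 9 with single libraries left out. With TUNAR siRNAs the count of 5 became 35 with the replicate block, 22 with the block and the length trend removed, 3 without the filter, 2 with the length trend removed, 9 with passage as a covariate, 0 in passage 74 only, 22 without replicate 1 and between 1 and 10 with single libraries left out. Averaged over siRNAs the count of 27 became 53 with the replicate block, 14 with the length trend removed and 2 in passage 74 only, and the block with the length trend removed called 35 higher and 4 lower. For the siRNA comparison in 1-AKP the count of 0 became 1 with the replicate block, with or without the length trend, and averaged over treatments it became 2 with the block, 1 with the block and the length trend removed and 1 without replicate 1. DESeq2 called 8, 7 and 27 in the 1-AKP comparisons. For DESeq2, limma, library size only, no filter, passage as a covariate and single left-out libraries, no share of all genes is given here. Those counts alone do not show a change particular to the members. Counts over all genes moved too: the block called 14.0%, 14.2% and 20.6% of all genes higher in the 1-AKP comparisons, and the block with the length trend removed 14.3%, 14.2% and 21.3%, with 17.1% lower averaged.

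In the 1-AKP comparisons the replicate numbers were no proven pairs: same-numbered libraries correlated at 0.427, 0.087 and 0.223 with negative siRNA and at 0.407, 0.063 and 0.159 with TUNAR siRNAs. Of 1288 values of named members under all these alternatives (planned for the replicate block and left-out libraries, added later for the others), 142 lost their call, 9 gained one and 0 reversed. The losses lay in the 1-AKP comparisons, where 91 of 184 called values were lost with negative siRNA, 40 of 115 with TUNAR siRNAs and 11 of 230 averaged, of which 8 in passage 74 only and 3 with the length trend removed. The gains were 3 members called lower with 1-AKP by the block with the length trend removed (MRPL43, MRPL54 and MRPS31), 4 values in the averaged siRNA comparison and 2 in that in 1-AKP. Leaving out replicate 3 of every group is the same as passage 74 only. The cause of these changes was not tested, and fewer libraries also leave fewer degrees of freedom. The difference of replicate 1 called between 31 and 38 members when single libraries were left out, and 35 with library size only, against 38. These alternatives, and the TCF/LEF and E-box motifs, were chosen after seeing the data.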
